A study of Mizuhopecten yessoensis with 6 samples.

Results

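Complex I of the respiratory chain takes electrons from NADH to ubiquinone and moves protons across the inner mitochondrial membrane as it does so. Most of its subunits are encoded in the nucleus, but the core of its membrane arm is built from ND subunits encoded by the mitochondrial genome itself. It is a main point of entry for electrons that end on oxygen, which places its transcripts close to the question of how a tissue meets low oxygen. The genes described here are the 7 ND subunit genes of the Yesso scallop (Mizuhopecten yessoensis), ND1 (KEG48_p11), ND2 (KEG48_p03), ND3 (KEG48_p02), ND4 (KEG48_p01), ND4L (KEG48_p08), ND5 (KEG48_p09) and ND6 (KEG48_p07). They were taken by their identifiers from a table of 20815 genes, in which 11 genes lie on the mitochondrial genome, and the identifiers were paired with symbols through the RefSeq gene table of assembly ASM211388v2. All 7 passed the filter on low values (1 FPKM or more in at least 3 libraries), far above it in every library.

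Gill was sampled from 3 scallops kept for 24 h under hypoxia, with dissolved oxygen at 1 mg/L, and from 3 scallops kept for the same time at a normal 9 mg/L. Each library came from a separate scallop drawn at random from its group, per the series' design text. No strain, age or number of tanks is given in the sources used here, so p-values measure the spread between these scallops and a tank cannot be told apart from its oxygen level. Library totals recovered from the values ran from 26695289 to 27900042 reads in the hypoxia libraries and from 24062577 to 25930694 reads in the normal libraries. Nuclear genes carry no names in the files or in the gene table. The gill label could therefore not be checked against marker genes, and nuclear complex I subunits, assembly factors and mitochondrial transcription factors could not be picked out.

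The 7 transcripts were among the most abundant of the gill. They stood between rank 10 and rank 96 of the 20815 genes in every library, and no value was below 1298 or above 4337 FPKM (fragments per unit of gene length and of library size). From 12822 to 120837 reads lay behind each value, so counting error is small beside the differences between scallops. Mean levels were lower under hypoxia for all 7 subunits, at 62.9 to 76.5% of the normal mean, while 46.2% of the 13744 tested genes had a lower mean. None of the 7 passed the test across all genes (limma on log2(FPKM + 1) with Benjamini-Hochberg adjustment, threshold 0.05). The background in that test was 0.429% of tested genes called lower and 1.48% called higher under hypoxia. At an unadjusted limma p under 0.05 there were 2 subunits, ND4L and ND6, against 7.03% of tested genes lower at that level. Limma's voom on the recovered reads likewise called 0 of the 7, where 0.349% of the 13743 genes in that fit were called lower. It had 2 of the 7 at an unadjusted p under 0.05, against 8.09% of its genes lower at that level. In whole gill, fewer cells rich in these transcripts and less transcript per cell cannot be told apart.

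**Figure D1:**
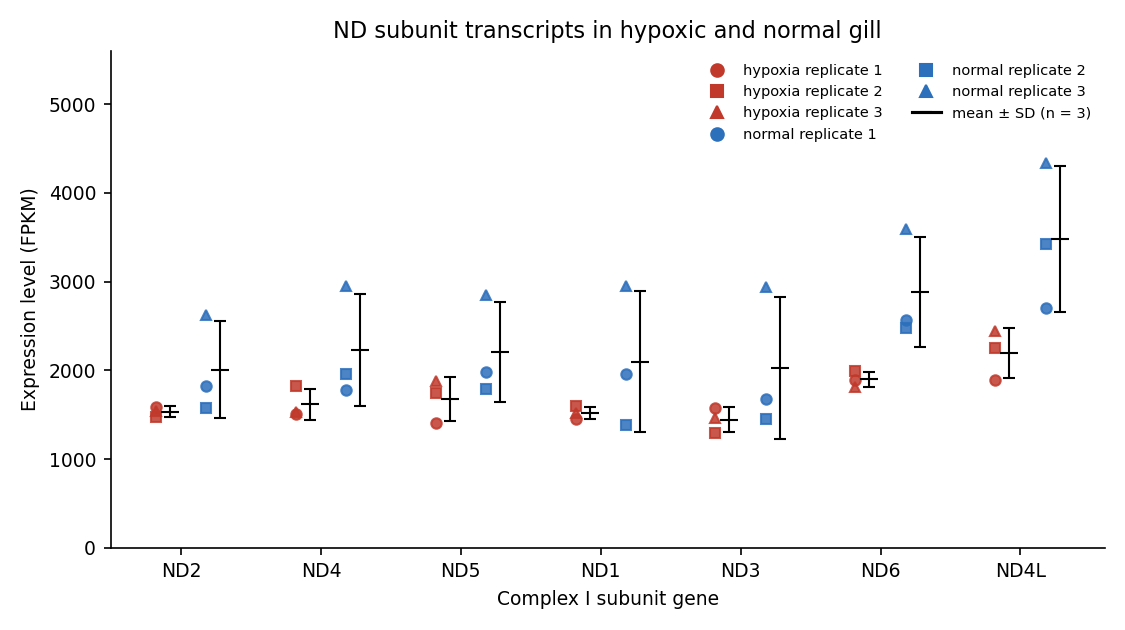
Expression level in FPKM (y axis) of the 7 ND subunit genes (x axis), with 1 point per library, red for hypoxia and blue for normal, and the mean ± SD of 3 libraries in black. Normal replicate 3 is the highest point for every subunit, and the red and blue points are apart only for ND6 and ND4L.

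ND6 and ND4L were the subunits whose groups did not overlap. Both sit in the membrane arm, side by side in mammalian complex I, and a helix of ND6 moves between the active and the resting form of the mammalian enzyme. ND6 had 1893, 1989 and 1814 FPKM in hypoxia replicates 1, 2 and 3, against 2569, 2482 and 3597 FPKM in normal replicates 1, 2 and 3. Every hypoxic scallop was below every normal one, and the hypoxic scallops lay close together. The change of ND6 was -0.58 on the log2(FPKM + 1) scale (SE 0.16, 95% CI -0.97 to -0.19, limma adjusted p = 0.14). ND4L had 1888, 2250.5 and 2440.3 FPKM under hypoxia, against 2698, 3417 and 4337 FPKM in normal gill. Here too the groups were apart, but each was spread more widely and the nearest scallops, hypoxia replicate 3 and normal replicate 1, were not far from each other. The change of ND4L was -0.65 (SE 0.20, 95% CI -1.12 to -0.17, limma adjusted p = 0.16), larger in size than that of ND6. That order turned without hypoxia replicate 1 (-0.54 for ND4L and -0.58 for ND6) and without normal replicate 2 (-0.65 for ND4L and -0.68 for ND6). Groups that do not overlap in this direction were found in 2 of 7 subunits and in 10.3% of all tested genes.

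ND3, also of the membrane arm, did not separate the groups. In mammals a loop of ND3 lies near the ubiquinone cavity and changes its exposure when the enzyme comes to rest. Its levels were 1580.4, 1298 and 1457 FPKM in hypoxic gill, against 1678, 1456 and 2940.3 FPKM in normal gill. Normal replicate 2 lay inside the hypoxic range, and normal replicate 3 was far above all other libraries. The change of ND3 was -0.42 with the widest error of the 7 (SE 0.27, 95% CI -1.06 to 0.22, limma adjusted p = 0.45).

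The antiporter-like subunits ND2, ND4 and ND5, which each carry a proton path in the membrane arm, had overlapping groups. ND5, the longest of the genes and the subunit at the far end of the arm, had 1401, 1742 and 1877 FPKM under hypoxia, against 1986, 1785 and 2847 FPKM in normal gill. Hypoxia replicate 3 was above normal replicate 2, and hypoxia replicate 1 was the lowest of all. ND4 had 1502, 1819.7 and 1530.2 FPKM in the hypoxic scallops, against 1773, 1959.7 and 2951 FPKM in the normal ones. Its hypoxia replicate 2 exceeded normal replicate 1, and the other hypoxic values were lower than all normal ones. ND2 had 1589.7, 1471 and 1544 FPKM in hypoxic gill, against 1826, 1575 and 2619 FPKM in normal gill. The overlap in ND2 was slight, with hypoxia replicate 1 a little above normal replicate 2. The log2 changes of ND2, ND4 and ND5 were -0.35 (SE 0.19), -0.43 (SE 0.21) and -0.38 (SE 0.21), with limma adjusted p values of 0.39, 0.34 and 0.39.

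ND1 lies where the membrane arm meets the part that takes up NADH, beside the entrance for ubiquinone. It had 1455, 1594 and 1518 FPKM under hypoxia, against 1961, 1384 and 2953 FPKM in normal gill. The lowest of all 6 values was that of normal replicate 2, so the hypoxic scallops fell inside the normal range. ND1 was the member with its lowest library in the normal group. The change was -0.40 (SE 0.26, 95% CI -1.03 to 0.24, limma adjusted p = 0.47).

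**Figure D2:**
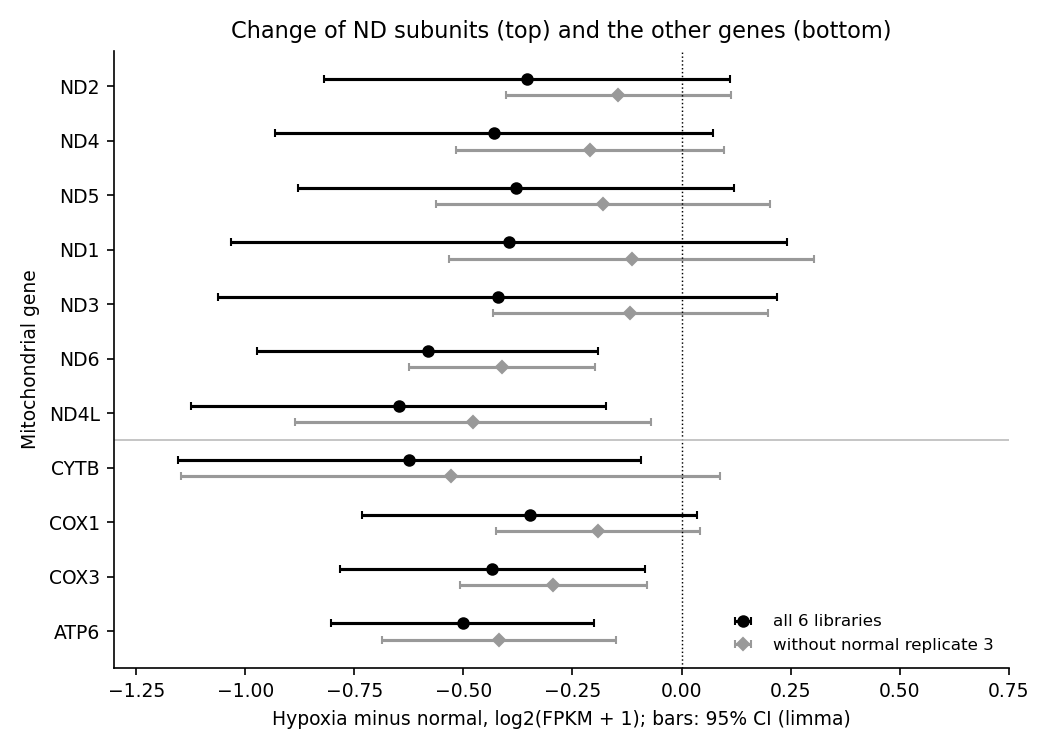
Change under hypoxia on the log2(FPKM + 1) scale (x axis, hypoxia minus normal) with its 95% confidence interval from limma, for the 7 ND subunits above the line and the other 4 mitochondrial genes below it. Black circles use all 6 libraries and grey diamonds leave out normal replicate 3; all points lie below 0, and among the ND subunits the intervals of ND6 and ND4L stay below 0 in both.

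Normal replicate 3 stood apart from the other libraries. It was the highest library for all 7 subunits, at 1.42 to 1.88 times the mean of the other normal scallops, with the largest ratio in ND3 and the smallest in ND4L. Its nuclear genes also summed to the highest total, 507454 FPKM, against 465896 to 482663 FPKM in the other 5 libraries. The typical gene was not raised there. Among genes above 0 in every library, the median ratio of a gene to its geometric mean over the libraries was 0.942 in normal replicate 3. It was 1.01 to 1.03 in the other 5 libraries. Without that library the median change of the 7 subunits was -0.18, against -0.42 with it, where the median of all tested genes was 0.01 and 0.03. ND1 then stood at -0.11, ND3 at -0.12, ND2 at -0.14, ND5 at -0.18 and ND4 at -0.21, all with intervals that include 0. ND6 kept a change of -0.41 (SE 0.08, limma adjusted p = 0.14) and ND4L one of -0.48 (SE 0.16, limma adjusted p = 0.28).

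Hypoxic scallops were more alike than normal ones in every ND subunit. The coefficient of variation ran from 3.91% in ND2 to 14.7% in ND5 under hypoxia, and from 21.5% in ND6 to 39.6% in ND3 in normal gill. The median SD of the 7 subunits on the log2(FPKM + 1) scale was 0.14 in hypoxic and 0.38 in normal gill, where the median over all tested genes was 0.19 and 0.25. These spreads rest on 3 scallops each and were not tested against each other. Between normal replicates 1 and 2 alone the coefficient of variation was 2.45 to 24.4%, and the hypoxic one was the smaller in 4 of the 7 subunits. Summed over the 7 genes, the level was 11309, 12164 and 12182 FPKM in hypoxic gill, against 14489, 14059 and 22245 FPKM in normal gill. The sums thus did not overlap, although most single subunits did. The hypoxic mean of the ND sum was 70.2% of the normal mean, and 83.3% of it without normal replicate 3. Sums of the other mitochondrial genes did not overlap either. Their hypoxic mean was 72.6% of the normal mean, and 79.8% of it without normal replicate 3. Of the total recovered for each library, at least 99.6 to 99.7% lay on the listed genes, since the smallest fitting length was taken for each gene. Out of that total, the ND genes took up 0.946, 1.05 and 1.04% under hypoxia, against 1.22, 1.14 and 1.84% in normal gill.

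The subunits were then compared with each other inside each library, where a scaling common to the library cancels. FPKM is a level per length, and on that basis levels of different genes were set side by side. Other effects of a gene's length or of adjoining genes on its reads were not corrected for. ND4L had the highest mean over all 6 libraries, 2839 ± 895 FPKM, and ND6 followed with 2391 ± 669 FPKM (SD, n = 6). ND5, ND4, ND1, ND2 and ND3 came next, in that order, with means of 1939.7 to 1735 FPKM. The spread from the highest to the lowest subunit of a library was narrow, 1.35- to 1.73-fold under hypoxia and 1.61- to 2.47-fold in normal gill.

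ND4L was above ND1, ND2, ND3, ND4 and ND5 in 6 of 6 libraries, and ND6 was above ND1, ND2, ND3 and ND4 in 6 of 6. These are the 9 pairs, of 21, that had the same order in every library. ND4L exceeded ND6 in 5 of 6 libraries by a mean log2 ratio of 0.23 (SD 0.19), and ND6 exceeded ND5 in 5 of 6 by 0.29 (SD 0.19). The exceptions were hypoxia replicate 1, where ND4L and ND6 were nearly equal, and hypoxia replicate 3, where ND5 was above ND6. Below them the neighbours in the order differed by less than their spread: 0.02 (SD 0.17) for ND5 over ND4, 0.10 (SD 0.22) for ND4 over ND1, 0.01 (SD 0.15) for ND1 over ND2 and 0.06 (SD 0.12) for ND2 over ND3. The lowest place was taken by ND5, ND3 and ND3 in hypoxia replicates 1, 2 and 3, and by ND3, ND1 and ND2 in normal replicates 1, 2 and 3.

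The order did not follow gene length. ND4L and ND3 are the shortest genes, 321 and 354 bases, and stood at the opposite ends of it. ND6, also short at 537 bases, came next after ND4L. From ND5, the longest at 1764 bases, the means then fell with length. ND4 (1245 bases), ND1 (948 bases), ND2 (981 bases) and ND3 followed it, and only ND1 and ND2, nearly level, broke that run. A link between level and gene length was not tested. In reads instead of reads per length, ND5 led in every library with 65967 to 120837 reads and ND3 was lowest with 12822 to 25046.

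**Figure D3:**
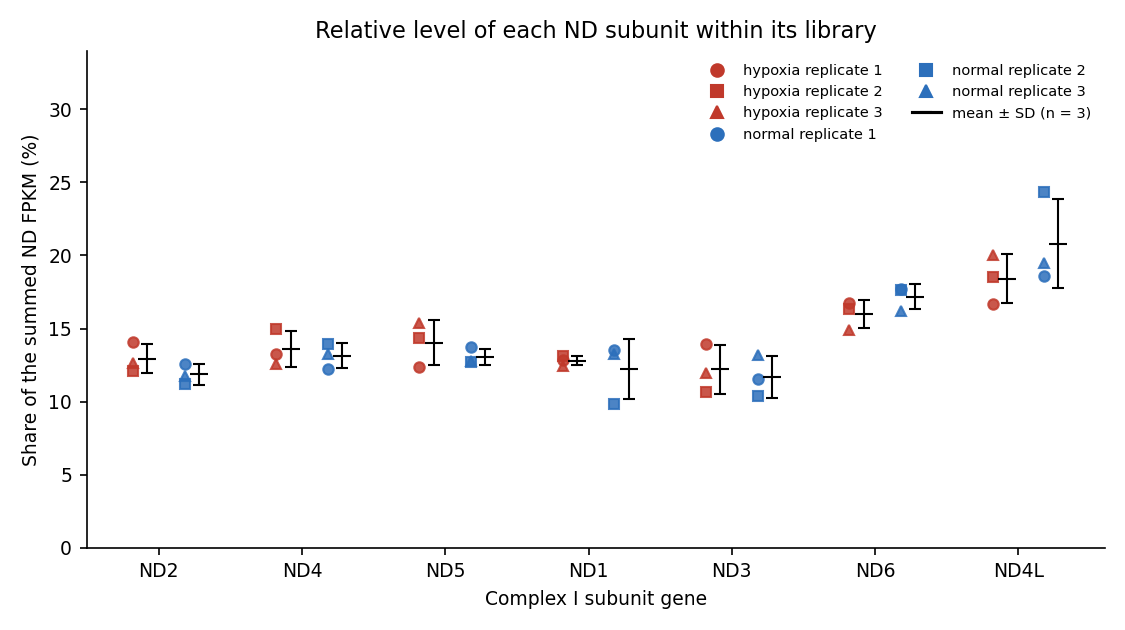
Share of each ND subunit in the summed FPKM of the 7 subunits of its library, in percent (y axis), with 1 point per library, red for hypoxia and blue for normal, and the mean ± SD of 3 libraries in black. The red and blue points overlap for all 7 subunits, and ND4L and ND6 have the highest mean shares in both groups.

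No difference in the make-up of the ND pool between hypoxic and normal gill was detectable with 3 scallops a group. For each subunit the share of the summed ND FPKM was compared with an exact two-sided permutation test, whose smallest p is 0.1 with 3 against 3. The shares overlapped between the groups for all 7, and the smallest p adjusted over the 7 exact tests was 0.7, in a design that cannot reach 0.05. ND4L held 16.7, 18.5 and 20.0% under hypoxia, against 18.6, 24.3 and 19.5% in normal gill, a mean difference of -2.40 percentage points (exact permutation p = 0.4). Without normal replicate 2 that difference was -0.65 points. This scallop stood above the other libraries in the ND4L share, and ND1 had its lowest share, 9.84%, there as well. ND6 held 16.7, 16.4 and 14.9% in hypoxic gill, against 17.7, 17.7 and 16.2% in normal gill, a difference of -1.19 points (exact permutation p = 0.3). ND2 held 14.1, 12.1 and 12.7% in hypoxic gill, against 12.6, 11.2 and 11.8% in normal gill, a difference of 1.08 points (exact permutation p = 0.2). ND1, ND3, ND4 and ND5 differed by 0.46 to 0.97 points, with exact permutation p values of 0.4 to 1.

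The spread of the shares was set beside that of the levels. Over the 6 libraries the coefficient of variation of a subunit's share ran from 6.36% in ND6 to 13.1% in ND4L, while that of its FPKM ran from 24.4% in ND2 to 34.8% in ND3. Within normal gill the share likewise varied less than the level in 7 of 7 subunits. Within hypoxic gill it did so in 4 of 7, while the share varied more than the level in ND2 (7.80 against 3.91%), ND3 (13.6 against 9.79%) and ND6 (6.08 against 4.61%). Shares in 1 pool are not independent of each other, since they add to a fixed sum. Of the 21 ratios between 2 subunits, 2 did not overlap between the groups, ND4L to ND5 and ND6 to ND2, both lower under hypoxia. With 3 against 3, groups that do not differ are apart in either direction at a rate of 0.1, and 2 of 21 is near that rate. The log2 ratio of ND4L to ND5 was 0.39 ± 0.03 in hypoxic gill and 0.66 ± 0.25 in normal gill, and that of ND6 to ND2 was 0.31 ± 0.11 in hypoxic gill and 0.54 ± 0.11 in normal gill (SD, n = 3 each). Both had an exact permutation p of 0.1, the smallest that 3 against 3 allows, and 21 such tests cannot separate these pairs from the rest after adjustment (adjusted p = 1).

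ND subunits were set beside the other mitochondrial protein-coding genes with values, CYTB of complex III, COX1 and COX3 of cytochrome c oxidase and ATP6 of ATP synthase. Those genes had higher means in both groups, at ranks 1 to 18 of all genes, and COX1 was the highest or second highest gene of each library. Single libraries overlapped. ND4L was above ATP6 in normal replicates 2 (3417 against 3359 FPKM) and 3 (4337 against 4218 FPKM), and below it in the other libraries. The mean level of the 7 subunits was 0.218, 0.210 and 0.234 of the COX1 level under hypoxia, against 0.247, 0.218 and 0.262 in normal gill. The groups overlapped in this ratio. The ND genes made up 38.1, 38.0 and 42.4% of the summed mitochondrial FPKM in hypoxia replicates 1, 2 and 3, against 38.5, 38.4 and 42.9% in normal replicates 1, 2 and 3. The share was thus nearly the same in 4 libraries and higher in hypoxia replicate 3 and normal replicate 3. In hypoxia replicate 3 the other mitochondrial genes had their lowest sum, 16564 FPKM, with CYTB at 3220.1 FPKM, and in normal replicate 3 both sums were the highest of the 6 libraries.

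**Figure D4:**
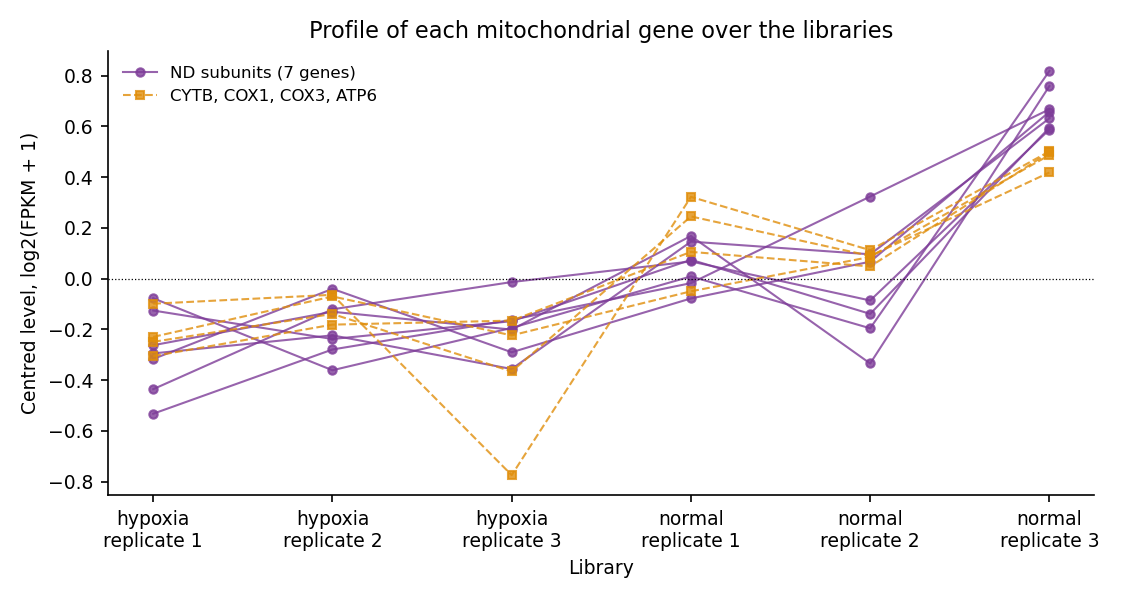
Level of each mitochondrial gene in each library (x axis) as log2(FPKM + 1) minus the mean of that gene over the 6 libraries (y axis), purple circles for the 7 ND subunits and orange squares for CYTB, COX1, COX3 and ATP6; lines join the values of 1 gene. Normal replicate 3 is the highest library for all 11 genes and lies further up for the ND subunits, and CYTB is low in hypoxia replicate 3.

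Changes of the ND subunits and of the other genes covered the same range. The median log2 change was -0.42 over the 7 subunits, from -0.65 to -0.35, and -0.47 over the other 4 genes, from -0.62 in CYTB to -0.35 in COX1. Groups did not overlap, with hypoxia lower, in 2 of the 7 subunits and in 4 of the 4 other genes, against 10.3% of all tested genes. In normal replicate 3 the other 4 genes stood at 1.19 to 1.38 times the mean of the remaining normal scallops, below the 1.42 to 1.88 of the ND subunits. The coefficient of variation in normal gill was 11.4 to 20.0% for the other genes, also below the 21.5 to 39.6% of the ND subunits. Under hypoxia it was smaller than in normal gill for ATP6, COX3 and COX1, as for the ND subunits. For CYTB it was larger, 25.3% under hypoxia against 13.4% in normal gill. Between normal replicates 1 and 2 alone it was 2.81 to 10.3% for the other genes, inside the range of the ND subunits. All of these are values of the same 6 libraries, and no test was made over the genes.

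Place on the mitochondrial genome was read from the order of genes in the RefSeq table, which lists 11 protein-coding, 23 tRNA and 2 rRNA genes there. ND subunit genes fall into 2 runs of neighbouring protein-coding genes on the circle. One run is ND5, ND4L and ND6, with no listed gene between ND5 and ND4L and 1 tRNA gene between ND4L and ND6. Its members had means of 1939.7, 2839 and 2391 FPKM and include the 2 most abundant subunits. The other run is ND2, ND3, ND4 and ND1, with 4 tRNA genes between ND2 and ND3, none between ND3 and ND4, and 4 between ND4 and ND1. The 4 members of that run had means of 1771, 1735, 1923 and 1811 FPKM, and each neighbouring pair differed by less than the spread between libraries. The steps at the ends of the runs were larger. The log2 ratio of COX1 to its neighbour ND5 was 2.19 (SD 0.17), and that of ATP6 to ND2, with no listed gene between them, was 0.86 (SD 0.19). The log2 ratio of ND6 to CYTB, which follows it, was -1.25 (SD 0.24).

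**Figure D5:**
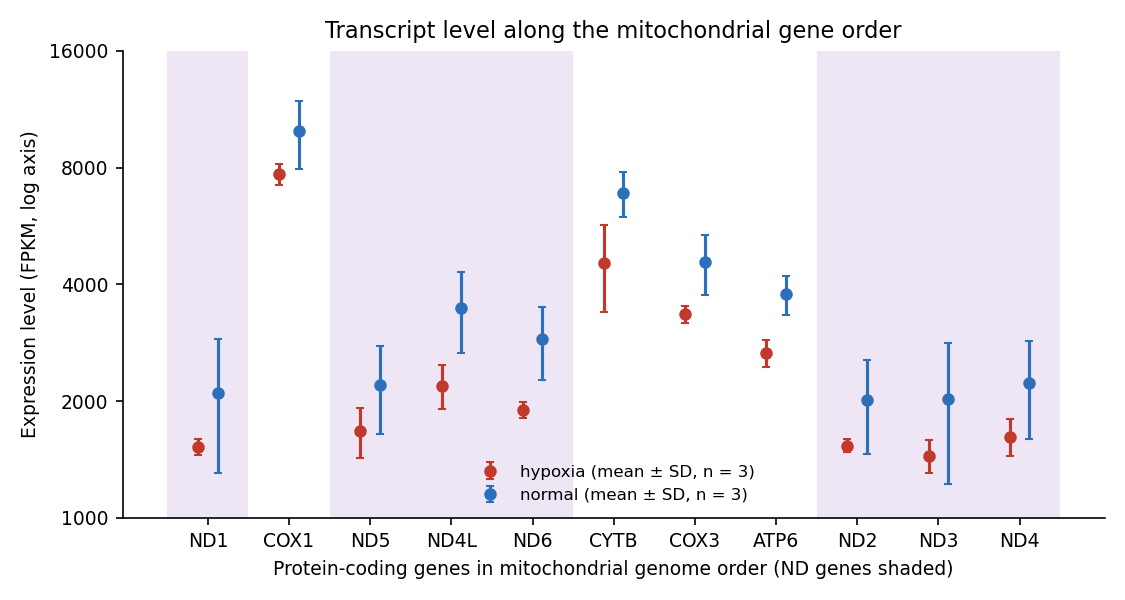
Mean expression level in FPKM (y axis, log scale) with its SD over 3 libraries, red for hypoxia and blue for normal, for the 11 protein-coding genes in the order of the mitochondrial genome (x axis), with ND subunit genes shaded. ND2, ND3, ND4 and ND1 form a low stretch that closes the circle, ND4L and ND6 stand above the other ND genes, and the unshaded genes have higher means.

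Other genes were ranked by how closely they followed the ND subunits over the 6 libraries. The measure was the root mean square difference between a gene's centred log2(FPKM + 1) profile and the mean centred profile of the 7 subunits, which were -0.29, -0.20 and -0.20 in hypoxic gill and 0.05, -0.04 and 0.67 in normal gill. Its median over the 13737 tested genes outside the ND set was 0.44. COX3 was the mitochondrial gene most like the subunits, in place 4 with 0.08, followed by COX1 in place 26 with 0.12 and ATP6 in place 134 with 0.16. CYTB was less like them, in place 2230 with 0.29. Within the set the difference from the mean profile ran from 0.09 in ND2 to 0.18 in ND4L. Each subunit is itself part of that mean, which makes its difference smaller. COX3 (0.084) was still nearer to the mean profile than ND2 (0.088), so the profile was not particular to the ND subunits. The closest nuclear genes were LOC110466335 with 0.06 and LOC110466671 with 0.08, for which the files and the gene table give no name. LOC110466335 had 23.0, 22.9 and 23.8 FPKM under hypoxia, against 31.3, 28.9 and 45.1 FPKM in normal gill. LOC110466671 had 36.7, 41.6 and 38.3 FPKM under hypoxia, against 41.4, 42.3 and 67.9 FPKM in normal gill. Both shared the high value of normal replicate 3, and with 6 libraries and 13737 genes to choose from some profiles are close in any case.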

How the data were processed

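RNA from gill of 6 scallops was sequenced, 3 under hypoxia and 3 at normal oxygen. The authors deposited 1 FPKM table in which each library has its own column. Tools named in the submitters' processing notes are fastp, HISAT2 and HTSeq. Versions, genome build, annotation, strand setting and the treatment of reads that fit several places, such as nuclear copies of mitochondrial genes, are not given in these sources. How ribosomal RNA was removed is likewise not given, and it can alter the level of mitochondrial transcripts.

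Columns were matched to samples by the names in the titles, and 0 were left unmapped. FPKM values were used as deposited. For genes at 1 FPKM or more in at least 3 libraries, limma-trend (limma 3.58.1, R 4.3.3) was fitted to log2(FPKM + 1) with a single term for group. The test was two-sided, and p-values were adjusted by Benjamini-Hochberg across every gene tested. Values are hypoxia minus normal. Exact permutation tests used scipy 1.17.1. The limma fit was tested on simulated data with changes larger than those of the ND subunits. That test does not show how often changes of their size would be found.

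Whole reads were recovered from library totals. The smallest whole total was sought that makes the reads of all 11 mitochondrial genes whole (tolerance 0.002) at their RefSeq lengths. In each library 2 or 3 totals fitted. The smallest length that gives whole reads was then taken for every other gene, so the reads of some genes may be understated. A length was found for 20813 of 20815 genes. The totals are those that scaled the FPKM values and need not equal the reads sequenced.

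The genes, lists and tests were chosen with earlier results of these data known. Named genes were the 7 subunits, the other mitochondrial genes and the 2 nuclear genes closest in profile. The lists of nuclear complex I, assembly, mitochondrial transcription and cell type marker genes matched no named gene. Alternatives covered the pseudocount (0.1), filters, scaling, quantile normalization, array weights, the replicate number as a block, voom and each library left out.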

Additional observations from a re-analysis of the deposited data

How the results depend on the processing

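Over 15 alternative settings each of the 7 ND subunits had a lower mean under hypoxia and 0 passed the limma test, with a smallest adjusted p of 0.063 under quantile normalization. All settings use the same scallops. The other filters and the replicate block cannot alter the change of a subunit, and the pseudocount of 0.1 hardly can at these levels (median -0.42). For ND4L and ND6, whose groups did not overlap, the direction without any 1 library was fixed in advance. The median log2 change of the 7 subunits was -0.47 with median of ratios scaling, -0.37 with libraries brought to an equal nuclear sum, -0.32 under quantile normalization, -0.37 with array weights and -0.47 with voom. Leaving out 1 library gave -0.62 (normal replicate 2) to -0.18 (normal replicate 3). The replicate number as a replicate block left it at -0.42, with a smallest adjusted p of 0.19. The numbers were not taken as pairs, because the labels do not say that they pair scallops. Deviations from the group means correlated by 0.10, 0.01 and -0.09 between libraries of the same number. Between libraries of different numbers the correlations ran from -0.19 to 0.17. The difference in share of the ND pool turned sign for 3 subunits when 1 library was left out, and the cause was not tested. For ND4 it ran from -0.22 to 0.98 percentage points, for ND3 from -0.40 to 1.25 and for ND1 from -0.59 to 1.25. For ND4L it kept its sign and lay between -3.49 (normal replicate 1 left out) and -0.65 (normal replicate 2 left out), and the order of the subunits by gain in share varied with the library left out. The ND share of mitochondrial FPKM differed by -0.40 points, from -1.83 without hypoxia replicate 3 to 1.07 without normal replicate 3, and by 0.05 points in recovered reads. With 3 scallops a group no exact test can pass 0.05.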
